A study of Mus musculus with 28 samples.

Results

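Hippocampal RNA of wild type mice that had received kainate (KA) was compared with that of wild type mice that had received saline. The comparison took the 3 arrays titled as wild type, 10 weeks and KA and the 3 titled as wild type, 10 weeks and saline, 6 of the 28 arrays of the series. All 6 mice are labelled as the C57BL/6J strain and as 10 weeks old, and no transgene or deletion is shared by the groups. The other 22 arrays are from fosB mutants or aged mice; the 12 young mutant arrays entered the fit, where they help estimate the spread and give the contrasts with the mutants. Hippocampi were taken after perfusion of the heart with saline. The dose of KA and the time from KA to sampling are not stated in the sources used here. The arrays are labelled as biological replicates, so p values measure a spread between samples. That spread was pooled over the 18 young arrays, mutants included, so for a given gene it can differ from that of these 6 arrays. The few samples per group limit the precision of every value.

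KA is an agonist of the kainate and AMPA types of glutamate receptor and is given to rodents to provoke seizures. The hippocampus, and its CA3 pyramidal cells above all, carries many kainate receptors. Seizures of this kind are known to switch on immediate early genes within neurons, to change neuropeptide and growth factor genes in dentate granule cells, and later to be followed by reactive astrocytes and activated microglia.

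Each value below is a deposited log2 signal of 1 gene on 1 array. Levels of different genes depend on their probes, so a level was compared only with the same gene on other arrays. A change is the KA mean minus the saline mean on the log2 scale, less the median change of all 19938 genes, which was 0.012. Its standard error (SE), 95% interval and adjusted p come from limma with Benjamini-Hochberg adjustment over all genes, and rose, fell, higher and lower are used at an adjusted p under 0.05.

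The 6 arrays differed in 3 ways that the groups do not explain. The median gene was at 8.52 in saline replicate 1 and 8.57 in KA replicate 1, against 8.77 to 8.85 in the other 4 arrays, so each group holds 1 array of the lower level and 2 of the higher. All mice are labelled female, yet the Y-linked genes Eif2s3y (9.82 to 10.44), Uty (9.64 to 9.90) and Kdm5d (9.15 to 9.80) gave signal on all 6 arrays. Xist, the RNA that coats the inactive X chromosome, was at 9.55 in saline replicate 1 and at 5.81 to 6.67 in the other 5, so that array stood apart from the rest. A protocol in the labels gives an age of 14 months for every mouse, which conflicts with the age label. Arrays of 1 group correlated at 0.988 to 0.995 over genes and arrays of different groups at 0.982 to 0.989. The hippocampal markers were present in both groups, with Prox1 of dentate granule cells at 10.79 to 11.21 and Wfs1 of CA1 pyramidal cells at 10.99 to 11.83. Fosb, the gene that the series modifies in other mice, was at 8.61, 8.98 and 9.04 after saline and 8.28, 8.75 and 9.02 after KA, and the groups overlap.

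Markers of the choroid plexus, the secretory tissue next to the hippocampus, also varied. The mean of 15 such markers was 8.42, 8.10 and 10.32 on the saline arrays and 10.20, 9.96 and 9.36 on the KA arrays. Saline replicate 3 was thus as high as the KA arrays, and the groups overlap. All 15 markers had a positive change, with a median of 0.84, and 0 passed the test. The 19 markers of monocytes, neutrophils and T cells, the 3 red blood cell genes and the 10 ependymal markers also had 0 members past the threshold. Of 22 endothelial and pericyte markers 0 rose and 1, Cspg4, fell, beside 1.62% and 0.938% of all genes. With each array centred on its own median 4 were lower, beside 4.04% of all genes. On that scale 4 were also lower without saline replicate 1, and 4 with the choroid plexus mean as a covariate. As deposited 0 to 3 were lower over the fits that leave out 1 array. In the fit of the wild type arrays alone 0 were lower. Counts without saline replicate 1, and with the choroid plexus mean as a covariate, are given beside the results below; both are on median-centred arrays and were chosen after the data were seen. In a bulk sample fewer cells of a type and less RNA per cell cannot be told apart.

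**Figure D1:**
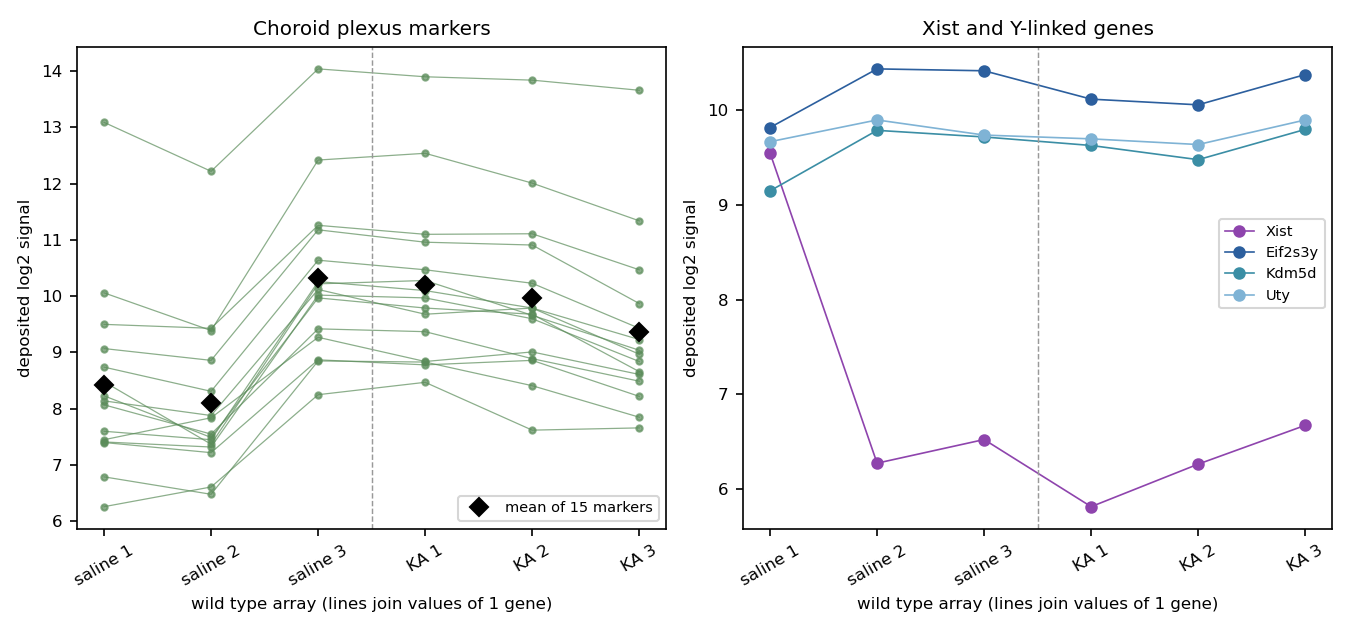
Deposited log2 signal on each of the 6 wild type arrays, for 15 choroid plexus markers (left, with their mean as a diamond) and for Xist and 3 Y-linked genes (right); the x axis gives the array and lines join the values of 1 gene. The choroid plexus mean lies at 8.42 and 8.10 in saline replicates 1 and 2 and at 9.36 to 10.32 on the other 4 arrays, and Xist stands at 9.55 in saline replicate 1 alone.

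Of the 19938 genes 323 were higher (1.62%) and 187 lower (0.938%) after KA, 510 in all (2.56%). Of these, 102 rose and 16 fell by at least 1 log2 unit, and 12 rose and 0 fell by at least 2. The median change was 0.77 among the higher genes and -0.63 among the lower, and the smallest called changes were 0.36 and -0.37. In 509 of the 510 the groups did not overlap; over all genes every KA array lay above every saline array in 6.46% and below in 6.16%. When each array was first centred on its own median, 626 genes were higher (3.14%) and 806 lower (4.04%), so that the share of higher genes among those called went from 63.3% to 43.7%. Of the 510 genes 491 passed on both scales. On centred arrays 498 of them also passed in replicates 2 and 3 of every group. Without saline replicate 1 the count was 475, and with the choroid plexus covariate 433. Over all genes these fits called 2136 higher and 2005 lower, 672 and 660, and 410 and 405, in that order. They reuse arrays that selected the 510 genes, so a high count was favoured in advance and is no independent support. A fit of the 6 wild type arrays alone, which has fewer degrees of freedom, called 142 higher and 31 lower. It did not call 40 of the 105 genes named here by rule. Among these were Nes, Rela, Fcgr1, Mfge8, Gsta4, Mcm5, Hlf, Aspa and Gadd45g, with adjusted p from 0.0529 (Hlf) to 0.116 (Gadd45g).

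Timp1, a secreted inhibitor of matrix metalloproteinases, had the largest rise and was at 7.16, 7.80 and 8.0 after saline and at 12.15, 11.05 and 11.39 after KA. Its change of 3.86 (SE 0.32, adjusted p = 5.6e-06) is 14.6-fold, and the lowest KA array lay far above the highest saline array. On centred arrays the Timp1 difference was 4.94 within the lower-level pair of arrays and 3.33 within replicates 2 and 3. Hspb1, a small heat shock protein, was at 9.15, 9.20 and 9.36 after saline and at 11.84, 11.87 and 11.75 after KA. Its groups did not overlap, and the change was 2.57 (SE 0.28, adjusted p = 4.2e-05). Hspb6, a second small heat shock protein, went from 9.03, 9.43 and 9.93 to 11.42, 11.43 and 11.43, so the KA arrays were nearly equal while the saline arrays ranged widely. Ptx3, a soluble pattern recognition protein, was at 6.23, 6.32 and 6.65 against 8.82, 8.88 and 8.84, a change of 2.43 (SE 0.27, adjusted p = 5.1e-05) with no overlap. Gldn encodes gliomedin, a protein known from nodes of Ranvier in peripheral nerve, and was at 7.33, 7.68 and 7.76 after saline. After KA it was at 9.90, 9.97 and 10.12, and its change of 2.39 (SE 0.24, adjusted p = 2.4e-05) is 5.25-fold.

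Membrane proteins made up another share of the named genes. Tm4sf1, a 4-pass membrane protein, was at 9.39, 9.90 and 10.15 after saline and at 11.94, 12.01 and 12.25 after KA. S1pr3, a receptor for sphingosine 1-phosphate, went from 9.35, 9.49 and 9.68 to 11.72, 11.42 and 11.59. Both had groups that did not overlap, with changes of 2.24 (SE 0.31) and 2.06 (SE 0.22). Cd44, the receptor of the matrix polymer hyaluronan, was at 7.46, 8.35 and 7.97 against 10.15, 9.78 and 10.25, a change of 2.11 (SE 0.25, adjusted p = 0.00011). Emp1, an epithelial membrane protein, changed by 2.05 (SE 0.30) and Gpr84, a myeloid receptor for medium-chain fatty acids, by 1.96 (SE 0.25). Tgm1, a transglutaminase that cross-links proteins, changed by 2.35 (SE 0.25) and Scgb3a1, a small secreted protein, by 1.96 (SE 0.19). All 15 named genes had 3 KA arrays above the 3 saline arrays, as did 6.46% of all genes. They were chosen for large called changes on these arrays, which favours such separation, here and for the called genes below.

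Tdo2, the enzyme that opens the ring of tryptophan, had the largest fall of the named genes and was at 7.44, 8.10 and 7.85 after saline and at 5.89, 6.21 and 6.36 after KA. That is a change of -1.65 (SE 0.23, adjusted p = 0.00043), or 3.15-fold lower, with no overlap. Nat8f5, of a family of N-acetyltransferases, was at 7.82, 8.65 and 8.66 against 6.65, 6.65 and 6.91. Etnppl, an enzyme of phosphoethanolamine breakdown found in astrocytes, went from 8.16, 8.5 and 8.59 to 6.70, 6.75 and 7.03. Neither gene had overlapping groups, and their changes were -1.65 (SE 0.25) and -1.60 (SE 0.17). Cldn10, a claudin of tight junctions, was at 10.95, 10.89 and 10.89 after saline and 9.27, 9.67 and 9.61 after KA. Bcan encodes brevican, a proteoglycan of the brain matrix, and went from 11.40, 11.62 and 11.56 to 9.99, 10.60 and 10.51, a change of -1.17 (SE 0.16). Gja1, the gap junction protein connexin 43, was tight after saline at 11.61, 11.64 and 11.65 and stood at 10.35, 10.78 and 10.70 after KA, a change of -1.04 (SE 0.13, adjusted p = 0.00022). In these 3 genes KA replicate 1 was the lowest array. Cyp4f15, Myorg and Pde7b, which encode a cytochrome P450, a glycosidase of astrocytes and a cyclic AMP phosphodiesterase, changed by -1.10, -1.04 and -0.99. The call of Pde7b was lost without saline replicate 2, where its change was -0.89 (adjusted p from 0.00435 to 0.0593 over the 6 fits that leave out 1 array).

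**Figure D2:**
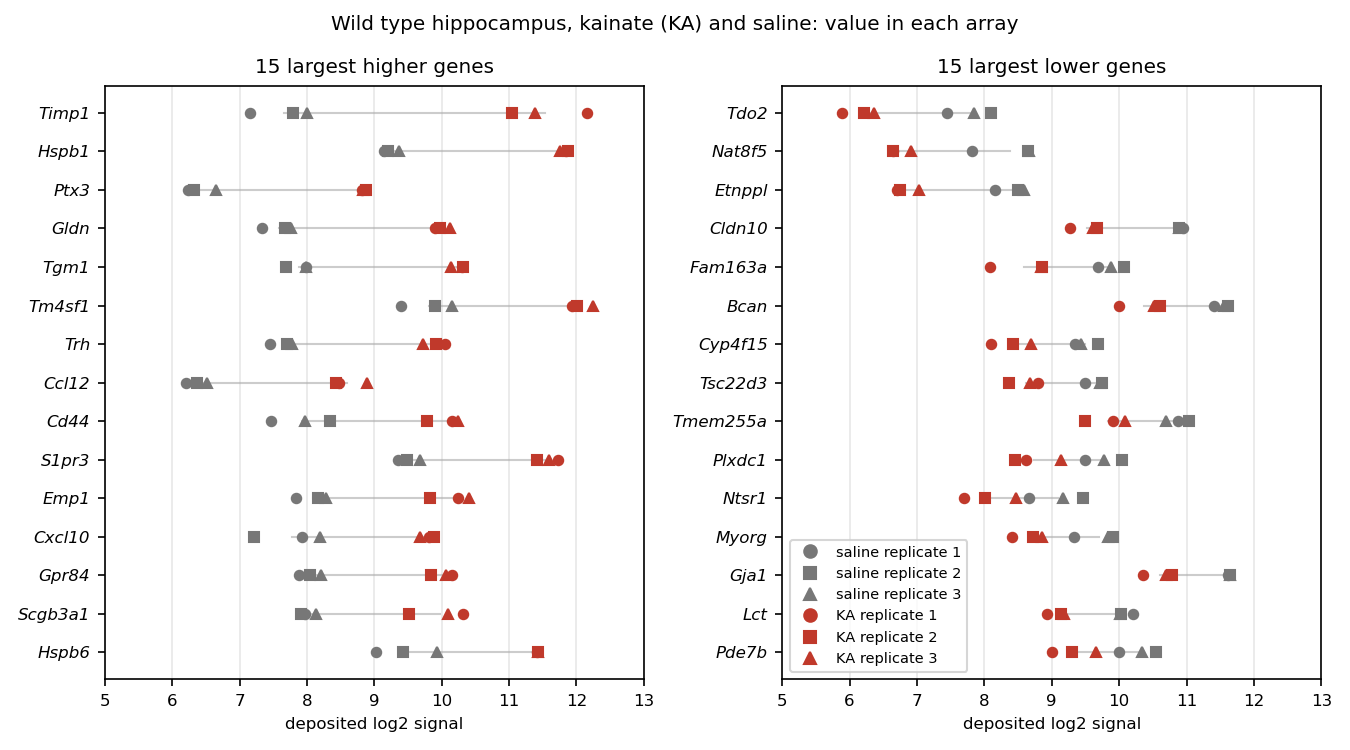
Deposited log2 signal (x axis) of the 15 named genes with the largest rise (left) and the 15 with the largest fall (right) in wild type hippocampus; each row is a gene, grey marks are the 3 saline arrays, red marks the 3 KA arrays, and the marker shape gives the replicate. In all 30 genes the 2 colours do not overlap, which their choice by change on these arrays favours. Over all genes every KA array lay above every saline array in 6.46% and below in 6.16%. Timp1 spans the widest range, from 7.16 to 12.15.

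Of the 15 higher genes, 6 hold in their promoter windows the letters of at least 1 of the 3 motifs searched, and these windows are shown since they belong to genes with large changes. The windows are the 250 bases before the annotated start, read 5′ to 3′ along the gene's strand, from RefSeq on build GRCm38.p6, and capitals mark the match. Both strands were searched for the AP-1 motif TGACTCA, which Fos and Jun proteins bind and which reads TGAGTCA on the other strand, for the cyclic AMP response element TGACGTCA, and for the core of the interferon-stimulated response element, which interferon-activated factors bind. Gldn (chr9:54286236-54286485, plus strand) has an AP-1 match that begins 72 bases before the start. Emp1 (chr6:135362681-135362930, plus strand) has one at 145 bases. Cxcl10 (chr5:92348890-92349139, minus strand) has an AP-1 match at 74 bases and an interferon-stimulated match at 213 bases, which do not overlap. Tgm1 (chr14:55713493-55713742, minus strand), Tm4sf1 (chr3:57301989-57302238, minus strand) and Hspb6 (chr7:30553051-30553300, plus strand) have an interferon-stimulated match at 242, 219 and 205 bases.
Gldn: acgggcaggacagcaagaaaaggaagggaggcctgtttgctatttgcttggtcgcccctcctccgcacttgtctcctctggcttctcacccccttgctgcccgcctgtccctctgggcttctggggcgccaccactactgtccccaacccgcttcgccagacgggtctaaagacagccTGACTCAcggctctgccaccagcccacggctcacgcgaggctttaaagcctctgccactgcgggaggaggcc
Emp1: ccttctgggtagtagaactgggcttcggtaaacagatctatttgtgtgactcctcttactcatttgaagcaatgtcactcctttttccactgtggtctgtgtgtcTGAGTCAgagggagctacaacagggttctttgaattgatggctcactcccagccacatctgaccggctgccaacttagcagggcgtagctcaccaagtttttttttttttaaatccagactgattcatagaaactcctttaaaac
Cxcl10: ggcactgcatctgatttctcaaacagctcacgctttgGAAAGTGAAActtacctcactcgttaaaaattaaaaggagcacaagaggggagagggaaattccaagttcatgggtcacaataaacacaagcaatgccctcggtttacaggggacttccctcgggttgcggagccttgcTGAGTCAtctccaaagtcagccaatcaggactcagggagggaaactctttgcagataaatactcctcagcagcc
Tgm1: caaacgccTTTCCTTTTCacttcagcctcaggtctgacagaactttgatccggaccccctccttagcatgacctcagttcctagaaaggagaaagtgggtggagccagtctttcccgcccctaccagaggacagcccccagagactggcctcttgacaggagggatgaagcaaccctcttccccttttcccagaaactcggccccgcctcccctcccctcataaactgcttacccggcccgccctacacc
Tm4sf1: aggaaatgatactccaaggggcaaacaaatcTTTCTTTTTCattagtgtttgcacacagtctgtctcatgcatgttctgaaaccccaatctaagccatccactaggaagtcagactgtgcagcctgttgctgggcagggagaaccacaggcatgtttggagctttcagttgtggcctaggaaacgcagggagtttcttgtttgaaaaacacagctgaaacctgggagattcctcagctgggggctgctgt
Hspb6: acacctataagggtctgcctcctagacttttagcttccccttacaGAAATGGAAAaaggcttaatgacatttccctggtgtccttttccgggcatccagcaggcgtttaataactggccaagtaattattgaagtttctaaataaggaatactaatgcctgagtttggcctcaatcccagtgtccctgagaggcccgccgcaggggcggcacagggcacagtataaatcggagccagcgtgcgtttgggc

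Over windows of 300 bases, from 250 before to 50 after the start, the AP-1 letters were in 30 of 249 higher genes with a window (12%), in 7 of 151 lower genes (4.64%) and in 844 of all 15614 measured genes with a window (5.41%). The interferon-stimulated letters were in 22 of the 249 higher genes (8.84%), 9 of the lower (5.96%) and 607 of all genes (3.89%). The cyclic AMP response element was in 5 of the higher genes (2.01%), 4 of the lower (2.65%) and 424 of all (2.72%). Over all 32851 windows of the table the shares were 5.2%, 3.44% and 1.79% in the order AP-1, interferon-stimulated and cyclic AMP. A match describes letters only and was not tested as a binding site.

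Of 14 genes known to rise in reactive astrocytes of several kinds of injury, 12 rose and 0 fell, with a median change of 1.65, beside 1.62% of all genes higher. Of 12 genes known from astrocytes after ischaemia, 8 rose and 0 fell, with a median of 1.14. Together the 2 lists hold 26 genes, of which 20 rose. Of 7 measured genes known from astrocytes after systemic inflammation 0 rose and 0 fell, with a median of 0.34. On centred arrays, where 3.14% of all genes were higher, the first 2 lists had 12 and 9 higher members. Without saline replicate 1 they again had 12 and 9, and with the choroid plexus covariate 11 and 8.

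Gfap, the intermediate filament that marks astrocytes, was at 11.14, 11.27 and 11.30 after saline and at 12.72, 12.79 and 12.73 after KA, a change of 1.5 (SE 0.14, adjusted p = 9.7e-06). Vim, the partner filament vimentin, went from 11.35, 11.86 and 12.06 to 13.13, 13.05 and 13.24, a change of 1.37 (SE 0.21). Both genes had every KA array above every saline array. Nes, the filament nestin of progenitors and reactive astrocytes, changed by 0.77 (SE 0.15, adjusted p = 0.00557). Serpina3n, a secreted protease inhibitor, was nearly constant within groups at 11.72, 11.79 and 11.74 against 13.52, 13.55 and 13.61, a change of 1.80 (SE 0.15). Lcn2, the iron-siderophore carrier lipocalin 2, was at 7.27, 7.0 and 7.35 against 8.81, 7.94 and 8.24, a change of 1.11 (SE 0.23, adjusted p = 0.00858). KA replicate 1 was its highest array, and its call was lost without saline replicate 2 (adjusted p from 0.00515 to 0.0662 over the 6 fits that leave out 1 array). The members not past the threshold were Cp, the copper protein ceruloplasmin, at 0.11 (95% interval -0.40 to 0.63) and Steap4, a metalloreductase, at 0.29 (-0.09 to 0.68).

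Among the ischaemia genes S100a10, an annexin partner, changed by 1.29 (SE 0.22), B3gnt5, a glycosyltransferase, by 1.26 (SE 0.20) and Sphk1, a sphingosine kinase, by 0.66 (SE 0.14). Sphk1 lost its call without saline replicate 2 or KA replicate 3 (adjusted p from 0.021 to 0.083, changes of 0.56 to 0.76). Ptgs2, the inducible cyclooxygenase, was at 10.76, 10.98 and 10.85 after saline and 11.15, 11.27 and 11.06 after KA. Its groups did not overlap, but its change of 0.28 did not pass (95% interval 0.07 to 0.50, adjusted p = 0.186). Cd14, the lipopolysaccharide coreceptor, was at 0.36 with an adjusted p of 0.0504.

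Of 28 measured genes of resting astrocytes 0 rose and 5 fell, with a median of -0.32, beside 0.938% of all genes lower. The 5 were Etnppl, Gja1, Mfge8, Slc4a4 and S100b. Mfge8, a secreted bridging protein for phagocytosis, was at 11.36, 11.78 and 11.72 against 10.55, 10.88 and 11.00, a change of -0.83 (SE 0.15, adjusted p = 0.00429). Slc4a4, a bicarbonate transporter, changed by -0.51 (SE 0.12) and S100b, a calcium-binding protein, by -0.45 (SE 0.10). The call of S100b was lost without saline replicate 1 or 2 or any KA replicate, with changes of -0.55 to -0.36 (adjusted p from 0.0379 to 0.132). Slc4a4 lost its call without saline replicate 2 or 3 or KA replicate 1 or 2 (adjusted p from 0.0255 to 0.19, changes of -0.54 to -0.46). The count of lower members was 3 without saline replicate 2, KA replicate 1 or KA replicate 2, and 2 in the fit of the 6 wild type arrays alone. On centred arrays, where 3.14% of all genes were higher and 4.04% lower, 2 members were higher and 11 lower. The counts were 2 and 7 without saline replicate 1 and 2 and 7 with the choroid plexus covariate. The 2 higher ones were Aqp4, the water channel of astrocyte endfeet, at 0.70 (adjusted p = 0.0802 as deposited, 0.00846 centred) and Sox9, a glial transcription factor, at 0.38 (0.132 and 0.00429). The glutamate transporters did not pass as deposited, with Slc1a2 at -0.19 (95% interval -0.38 to 0.01) and Slc1a3 at -0.35 (-0.64 to -0.06). Glul, glutamine synthetase, was at -0.35 (-0.56 to -0.15) and Kcnj10, the potassium channel Kir4.1, at 0.05 (-0.16 to 0.25).

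**Figure D3:**
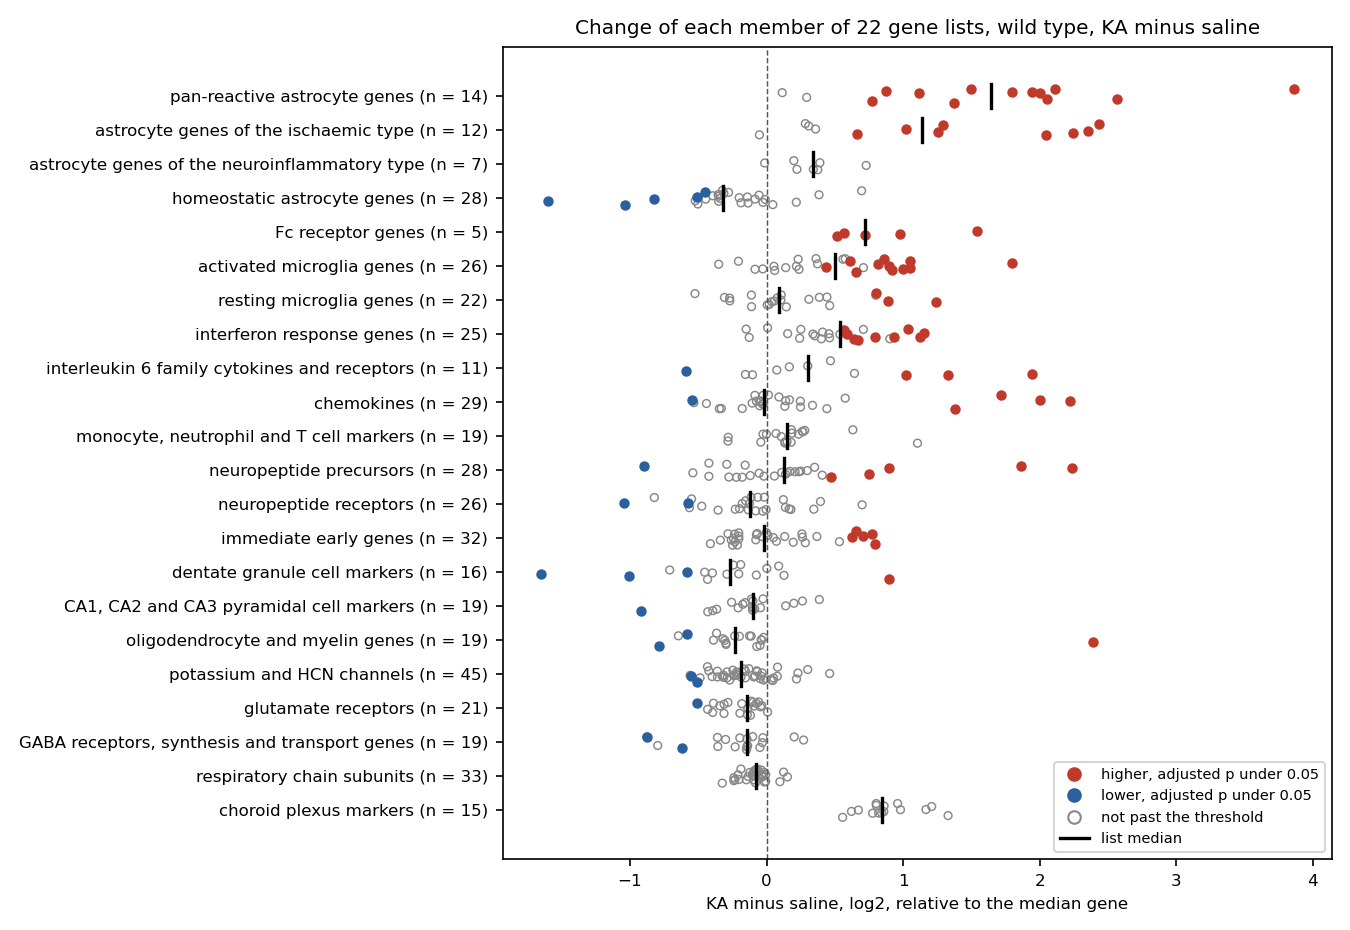
Change of each measured member of 22 gene lists, KA minus saline on the log2 scale relative to the median gene (x axis); filled marks passed an adjusted p under 0.05, open grey marks did not, and the black bar is the list median. The medians of the first 2 reactive astrocyte lists lie at 1.65 and 1.14, those of resting astrocytes and dentate granule cells at -0.32 and -0.27, and no choroid plexus marker passed.

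Ligands, receptors and intracellular parts of the interleukin 6 pathway rose in part. These cytokines act through the shared receptor gp130, which activates STAT3, and STAT3 in turn raises its own inhibitor SOCS3. Of 11 cytokines and receptors of the family 3 rose and 1 fell, with a median of 0.30, beside 1.62% and 0.938% of all genes. Lif, leukaemia inhibitory factor, was at 7.20, 7.26 and 7.42 after saline and 9.01, 8.52 and 8.37 after KA, a change of 1.32 (SE 0.16, adjusted p = 0.00013). Clcf1, cardiotrophin-like cytokine factor 1, changed by 1.02 (SE 0.18, adjusted p = 0.00228). Osmr, the oncostatin M receptor, went from 8.19, 8.64 and 8.68 to 10.30, 10.35 and 10.73, a change of 1.95 (SE 0.28, adjusted p = 0.00044). None of these 3 genes had overlapping groups. Cntfr, the receptor of ciliary neurotrophic factor, was at 11.86, 12.09 and 12.03 against 11.17, 11.49 and 11.58, a change of -0.59 (SE 0.12, adjusted p = 0.0135). Its call was lost without saline replicate 2 or 3 or KA replicate 1 (adjusted p from 0.0131 to 0.083, changes of -0.62 to -0.55).

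Il6st, which encodes gp130, was at 0.17 (95% interval -0.10 to 0.43) and did not pass. Il6 itself was at 3.71, 4.14 and 3.60 after saline and 4.02, 4.60 and 4.80 after KA, and its change of 0.64 did not pass (adjusted p = 0.154). Among 16 JAK, STAT and SOCS genes 2 rose and 0 fell, beside 1.62% and 0.938% of all genes. Stat3 went from 9.84, 10.21 and 10.29 to 11.46, 11.31 and 11.43, a change of 1.27 (SE 0.17, adjusted p = 0.00022). Socs3 went from 8.23, 8.48 and 8.75 to 10.00, 9.84 and 10.15, a change of 1.5 (SE 0.21, adjusted p = 0.00043). In both genes the groups did not overlap. A dimmer probe set of Socs3 changed by 0.83.

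Of 29 chemokines 4 rose and 1 fell, beside 1.62% and 0.938% of all genes, and the list median was -0.02. Ccl12, a ligand of the monocyte receptor Ccr2, was at 6.21, 6.37 and 6.51 after saline and 8.47, 8.43 and 8.89 after KA, a change of 2.22 (SE 0.28, adjusted p = 0.00013). Ccl2, the main ligand of the same receptor, was at 7.19, 7.23 and 7.77 against 8.99, 8.48 and 8.89, a change of 1.38 (SE 0.25). Neither gene had overlapping groups. Cxcl10, which attracts T cells through Cxcr3 and is induced by interferon, went from 7.93, 7.22 and 8.19 to 9.81, 9.89 and 9.68, a change of 2.0 (SE 0.34, adjusted p = 0.00228). Ccl3, a chemokine that attracts myeloid cells, was even after saline at 7.60, 7.73 and 7.81 but spread after KA at 10.48, 8.49 and 9.35. Its change of 1.71 (SE 0.32, adjusted p = 0.00438) ranged from 1.11 to 2.22 over the fits that leave out 1 array and passed in all 6, while the fit of the 6 wild type arrays alone did not call it (adjusted p = 0.101). Cxcl14 fell by 0.55 (SE 0.11, adjusted p = 0.0123), a call lost without saline replicate 2 (adjusted p from 0.0163 to 0.0715 over the 6 fits). Ccl4 was at 0.17 (95% interval -0.13 to 0.47), Ccl5 at -0.03 (-0.35 to 0.30) and Cxcl1 at 0.09 (-0.21 to 0.39). Of 13 chemokine receptors 0 passed, and Ccr2 was at 0.28 (-0.07 to 0.63).

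Of 21 genes of interleukin 1, tumour necrosis factor and NF-kappa B signalling 5 rose and 0 fell, beside 1.62% and 0.938% of all genes. The median was 0.36. On centred arrays 8 rose, beside 3.14% of all genes, and also 8 without saline replicate 1. Il1a, the cytokine interleukin 1 alpha, was at 6.44, 6.87 and 6.58 after saline and 7.99, 7.67 and 8.01 after KA, a change of 1.25 (SE 0.20, adjusted p = 0.00131). Tnfrsf1a, the main receptor of tumour necrosis factor, changed by 1.33 (SE 0.27) and Tnfrsf12a, the receptor of the related ligand TWEAK, by 1.02 (SE 0.18). Myd88, the adaptor below the interleukin 1 and Toll-like receptors, changed by 0.94 (SE 0.13) and Rela, an NF-kappa B subunit, by 0.62 (SE 0.11). The ligands Tnf (0.48, 95% interval 0.07 to 0.89) and Il1b (0.36, -0.08 to 0.79) did not pass.

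Of 25 interferon response genes 9 rose and 0 fell, beside 1.62% and 0.938% of all genes. The median was 0.54, and 23 had a positive change. The count depended on single arrays: as deposited it was 3 without saline replicate 1 or KA replicate 3, 4 without saline replicate 2 or KA replicate 2, 5 without KA replicate 1, 6 without saline replicate 3, and 4 in the fit of the 6 wild type arrays alone. On centred arrays, where 3.14% of all genes were higher, 12 rose, 8 without saline replicate 1 and 6 with the choroid plexus covariate. The part of single arrays or of choroid plexus RNA in the result was not tested. Ifitm3, a membrane protein that blocks virus entry, was at 10.36, 10.51 and 10.84 after saline and 12.01, 11.50 and 11.69 after KA, a change of 1.15 (SE 0.18, adjusted p = 0.00121). Usp18, a brake on the type I interferon receptor, went from 7.55, 7.60 and 8.06 to 8.88, 8.67 and 8.82, a change of 1.04 (SE 0.17, adjusted p = 0.00148). Neither gene had overlapping groups. Mx1, an antiviral GTPase, changed by 0.64 (SE 0.13, adjusted p = 0.00613) and Trim25, a ubiquitin ligase of RNA sensing, by 0.59 (SE 0.13, adjusted p = 0.0155). Trim25 lost its call without saline replicate 1 or KA replicate 3 (adjusted p from 0.0202 to 0.0869, changes of 0.54 to 0.68), and Mx1 in the fit of the 6 wild type arrays alone (adjusted p = 0.164). In the promoter windows of this list the interferon-stimulated letters were in 12 of 20 genes (60%) beside 3.89% of all genes. The list was chosen for a response to interferon, and the 20 are its members with a window, not only those that rose. The share therefore says nothing about the response to KA. Of 14 genes of MHC class I and antigen presentation 0 passed, with a median of 0.12 and B2m at 0.03 (95% interval -0.23 to 0.29).

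Genes of microglia were counted in 3 lists. Of 5 Fc receptor genes, which bind antibodies, 5 rose, with a median of 0.72, beside 1.62% of all genes. Fcgr2b, the inhibitory receptor, was at 7.99, 8.20 and 8.16 after saline and 9.61, 9.75 and 9.66 after KA, a change of 1.54 (SE 0.17, adjusted p = 4.2e-05). Fcgr4 changed by 0.98 (SE 0.14), Fcgr1 by 0.72 (SE 0.12), Fcgr3 by 0.57 (SE 0.13) and Fcer1g, the common signalling chain, by 0.52 (SE 0.12). The call of Fcgr3 was lost without saline replicate 2 or 3 or KA replicate 1 (adjusted p from 0.029 to 0.0825, changes of 0.41 to 0.68). Fcer1g lost its call without the same 3 arrays (adjusted p from 0.0358 to 0.0752, changes of 0.36 to 0.60), so 3 of the 5 rose in each of those fits, and 2 in the fit of the 6 wild type arrays alone. All 5 also passed on centred arrays, where 3.14% of all genes were higher. The 5 passed there without saline replicate 1 too, and 4 of the 5 passed with the choroid plexus covariate.

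Of 26 genes of activated microglia 11 rose and 0 fell, with a median of 0.50, beside 1.62% and 0.938% of all genes. On centred arrays 16 were higher and 1 lower, beside 3.14% and 4.04% of all genes, and 11 and 1 without saline replicate 1. Over the fits that leave out 1 array 8 to 11 rose, and 6 in the fit of the 6 wild type arrays alone. Gpnmb, a lysosomal membrane glycoprotein, was at 8.68, 8.75 and 8.68 after saline and 9.89, 9.61 and 9.80 after KA, a change of 1.05 (SE 0.11, adjusted p = 4.2e-05). Cst7, an inhibitor of cathepsins, went from 7.17, 7.24 and 7.49 to 8.58, 8.18 and 8.32, a change of 1.05 (SE 0.14, adjusted p = 0.00021). Neither gene had overlapping groups. Msr1, a scavenger receptor, changed by 1.79 (SE 0.31), Cd9, a tetraspanin, by 0.86 (SE 0.12) and Cd52, a small surface glycoprotein, by 0.81 (SE 0.12). Cd68, a lysosomal marker of phagocytes, changed by 0.66 (SE 0.12) and Csf1, the growth factor of microglia, by 0.61 (SE 0.15). Csf1 lost its call without saline replicate 1 or 2 or KA replicate 1 (adjusted p from 0.0263 to 0.0866, changes of 0.37 to 0.74).

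Beside 1.62% and 0.938% of all genes, 3 of 22 genes of resting microglia rose and 0 fell, with a median of 0.09. They were Ly86 at 1.24 (SE 0.16), a partner of a Toll-like receptor family member, Fcrls at 0.89 (SE 0.16) and Spi1, the myeloid transcription factor PU.1, at 0.80 (SE 0.15). On centred arrays 7 were higher and 1 lower, beside 3.14% and 4.04% of all genes, and 6 and 1 without saline replicate 1. Aif1, which encodes IBA1, was at 7.61, 7.74 and 7.47 after saline and 7.63, 7.70 and 7.58 after KA, a change of 0.02 (95% interval -0.20 to 0.24). Cx3cr1, the fractalkine receptor, was at 0.11 (-0.08 to 0.30), Tmem119 at 0.14 (-0.07 to 0.36), Csf1r at 0.00 (-0.22 to 0.23) and P2ry12, a purine receptor, at -0.27 (-0.57 to 0.03). The groups of Aif1 and Csf1r overlapped, while those of Cx3cr1, Tmem119 and P2ry12 did not, and none of the 5 passed. Siglech was at -0.52 (adjusted p = 0.0944 as deposited and 0.0021 on centred arrays).

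Of 16 complement genes 4 rose and 0 fell, with a median of 0.30, beside 1.62% and 0.938% of all genes. C5ar1, the receptor of the C5a fragment, was at 7.13, 7.15 and 7.44 against 8.94, 8.29 and 8.19, a change of 1.22 (SE 0.22, adjusted p = 0.00402). C4b, a component of the classical pathway, went from 9.13, 9.30 and 9.55 to 10.15, 10.36 and 10.42, a change of 0.97 (SE 0.18). C3ar1, the receptor of C3a, changed by 0.66 (SE 0.16) and C1qc, a chain of the starter complex, by 0.45 (SE 0.11). The count of higher members was 2 without saline replicate 1, saline replicate 2 or KA replicate 3. C1qc lost its call without any 1 of the 6 arrays (adjusted p from 0.055 to 0.099, changes of 0.35 to 0.53) and C3ar1 without saline replicate 1 or 2 or KA replicate 1 or 3 (adjusted p from 0.0263 to 0.0943, changes of 0.46 to 0.80). The other chains C1qa (0.41, adjusted p = 0.0661) and C1qb (0.46, adjusted p = 0.108) did not pass. Beside these myeloid genes, 0 of 19 monocyte, neutrophil and T cell markers passed, with a median of 0.15. Of 10 markers of border macrophages 1 rose, Clec4n, a C-type lectin, at 0.61 (SE 0.16). Its call was lost without any 1 array but KA replicate 1 (adjusted p from 0.00907 to 0.218, changes of 0.55 to 0.71).

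Among 28 neuropeptide precursors 5 rose and 1 fell, with a median of 0.12, beside 1.62% and 0.938% of all genes. Trh, the precursor of thyrotropin-releasing hormone, was at 7.45, 7.71 and 7.78 after saline and 10.05, 9.91 and 9.73 after KA. Its change of 2.24 (SE 0.40, adjusted p = 0.00376) is 4.71-fold, and the groups were far apart. Gal, the precursor of galanin, a peptide that dampens transmitter release, went from 7.21, 7.01 and 6.80 to 9.01, 8.81 and 8.81. Its change of 1.86 had a small error (SE 0.11, adjusted p = 5.9e-08). Penk, the enkephalin precursor, was at 11.01, 10.81 and 10.66 against 11.84, 11.72 and 11.64, a change of 0.90 (SE 0.17). Npy, neuropeptide Y, was at 11.78, 11.59 and 11.47 against 12.42, 12.47 and 12.23, a change of 0.75 (SE 0.14, adjusted p = 0.00569). None of these 4 peptide genes had overlapping groups. Rln1, a relaxin, changed by 0.47 (SE 0.11, adjusted p = 0.0209, and 0.116 with the choroid plexus covariate) and lost its call without saline replicate 2 or KA replicate 2 or 3 (adjusted p from 0.0251 to 0.141, changes of 0.35 to 0.57).

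Agt, angiotensinogen, which the brain makes mainly in astrocytes, was at 10.37, 10.59 and 10.65 after saline and 9.61, 9.47 and 9.87 after KA, a change of -0.90 (SE 0.17). The interneuron peptides Sst (-0.05, 95% interval -0.28 to 0.17), Cck (-0.22, -0.45 to 0.00) and Vip (-0.42, -0.73 to -0.12) did not pass, nor did the dentate opioid precursor Pdyn (-0.28, -0.68 to 0.12). Of 26 neuropeptide receptors 0 rose and 2 fell, beside 1.62% and 0.938% of all genes. Ntsr1, a neurotensin receptor, was at 8.66, 9.47 and 9.16 against 7.70, 8.01 and 8.47, a change of -1.05 (SE 0.26, adjusted p = 0.039). Npy1r, the Y1 receptor of neuropeptide Y, was at 9.50, 9.81 and 9.64 against 8.97, 9.06 and 9.23, a change of -0.57 (SE 0.13, adjusted p = 0.0205). Both lost their call without saline replicate 2 or 3 or KA replicate 1 or 2 (adjusted p from 0.0197 to 0.242 for Ntsr1 and 0.0175 to 0.133 for Npy1r, changes of -1.20 to -0.88 and -0.62 to -0.52). The Y2 receptor Npy2r was at 0.35 (adjusted p = 0.329), Galr1 at -0.23 (95% interval -0.54 to 0.09) and Trhr at -0.15 (-0.82 to 0.51).

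The response to KA was also set against that of the fosB mutants, in a contrast that uses these 6 arrays as well as those of the mutants. The response of wild type mice differed from that of fosB-null mice in 8 genes (0.0401%) and from that of fosB d/d mice in 3 (0.015%). Of the 105 genes named here by rule, 3 were among the first, Gal, Nptx2 and Cst7, and 2 among the second, Gal and Nptx2. The response of each was larger in wild type mice. The 15 named genes of largest rise also had a smaller response in each mutant, but 0 of them passed this contrast. A gene that did not pass is not shown to respond alike. Named genes were chosen for their wild type change on the same arrays, which favours a larger wild type response.

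**Figure D4:**
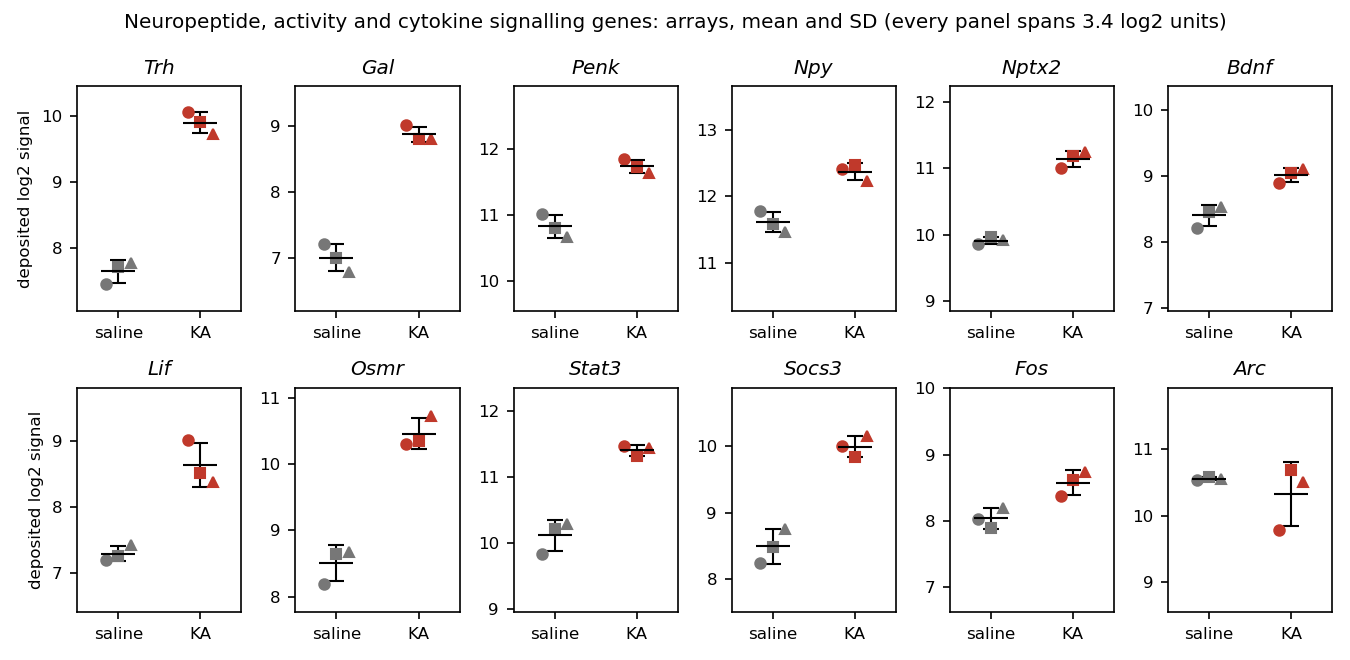
Deposited log2 signal (y axis) of 12 neuropeptide, activity and cytokine signalling genes on the saline arrays (grey) and KA arrays (red), with the group mean and SD as bars and the marker shape as the replicate; every panel spans the same range. Trh, Gal, Lif, Osmr, Stat3 and Socs3 show groups far apart, Fos groups that are close, and Arc a KA replicate 1 at 9.78 below all other arrays.

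Most immediate early genes, which neurons switch on within minutes of activity, did not pass. Of 32 members 5 rose and 0 fell, with a median of -0.02, beside 1.62% of all genes. On centred arrays 6 were higher and 3 lower, beside 3.14% and 4.04% of all genes, and 6 and 1 without saline replicate 1. As deposited 3 rose without saline replicate 1, saline replicate 2 or KA replicate 3, and 1 in the fit of the 6 wild type arrays alone. The 5 were Atf3 at 0.80 (SE 0.12), Maff at 0.77 (SE 0.19), Trib1 at 0.70 (SE 0.11), Gadd45b at 0.65 (SE 0.15) and Gadd45g at 0.62 (SE 0.11). Atf3, a stress transcription factor, was at 7.88, 7.67 and 7.97 after saline and 8.43, 8.75 and 8.77 after KA, with no overlap. Gadd45b lost its call without saline replicate 1, 2 or 3 or KA replicate 1 or 3 (adjusted p from 0.0141 to 0.123, changes of 0.55 to 0.82). Maff lost its call without saline replicate 1 or 2 or KA replicate 2 or 3 (adjusted p from 0.00912 to 0.167, changes of 0.68 to 0.88). Fos was at 8.02, 7.89 and 8.20 after saline and 8.37, 8.62 and 8.74 after KA. Its groups did not overlap, yet its change of 0.53 (95% interval 0.19 to 0.88) passed only on centred arrays (adjusted p = 0.0962 as deposited, 0.0156 centred). Arc, the synaptic immediate early gene, was at 10.54, 10.58 and 10.55 against 9.78, 10.69 and 10.50, a change of -0.25 (-0.69 to 0.19) with overlap. Egr1 was at -0.07 (-0.35 to 0.21), Npas4 at -0.20 (-0.55 to 0.15), Nr4a1 at -0.26 (-0.66 to 0.14), Homer1 at -0.07 (-0.29 to 0.15) and Fosb at -0.20 (-0.64 to 0.23).

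In the family of 7 Fos and Jun genes 1 rose, beside 1.62% of all genes. Fosl1, which encodes FRA1, was at 7.33, 7.43 and 7.57 after saline and 8.70, 8.44 and 8.73 after KA, a change of 1.17 (SE 0.19, adjusted p = 0.00163). Jun was at 0.44 (95% interval 0.01 to 0.86) and Junb at 0.37 (-0.01 to 0.75). Nptx2 is a secreted pentraxin that clusters AMPA receptors. It was at 9.85, 9.96 and 9.91 after saline and 11.00, 11.19 and 11.24 after KA, a change of 1.22 (SE 0.11, adjusted p = 8.9e-06) with wide separation. Its relative Nptx1 was at -0.13 (-0.38 to 0.13). Bdnf, brain-derived neurotrophic factor, was at 8.22, 8.46 and 8.53 against 8.89, 9.04 and 9.10, a change of 0.59 (SE 0.11, adjusted p = 0.00447), and its receptor Ntrk2 was at -0.25 (-0.46 to -0.04). The fit of the 6 wild type arrays alone did not call Bdnf (adjusted p = 0.127). Vgf, a granin-like precursor, changed by 0.40 (SE 0.10, adjusted p = 0.0395), and its call was lost without any 1 of the 6 arrays (adjusted p from 0.0561 to 0.14, changes of 0.33 to 0.45). Tgfb1, a growth factor, changed by 0.48 (SE 0.10) and lost its call without saline replicate 2 or KA replicate 3 (adjusted p from 0.0101 to 0.0697, changes of 0.40 to 0.58), and Inhba, an activin subunit, was at 0.47 (-0.07 to 1.01).

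Genes that build or cut the matrix between cells changed in both directions. Over all genes 1.62% were higher and 0.938% lower. Of 23 protease and protease inhibitor genes 4 rose and 1 fell, and of 29 matrix genes 7 rose and 1 fell, with medians of -0.02 and 0.08. Over the fits that leave out 1 array 3 of the first list and 5 to 8 of the second rose. In the fit of the 6 wild type arrays alone 3 of each list rose. Beside Timp1, the matrix protease Adamts1 went from 8.37, 8.89 and 8.95 to 10.47, 9.92 and 9.94, a change of 1.36 (SE 0.16, adjusted p = 0.00011). Plaur, the urokinase receptor, changed by 0.90 (SE 0.16) and Mmp19, a matrix metalloproteinase, by 0.52 (SE 0.13). Mmp19 lost its call without any 1 of the 6 arrays (adjusted p from 0.0609 to 0.113, changes of 0.41 to 0.60). Timp4, an inhibitor related to Timp1, was at 10.86, 11.02 and 10.84 against 10.05, 10.14 and 10.16, a change of -0.80 (SE 0.13, adjusted p = 0.00152). Timp2 (-0.18, 95% interval -0.56 to 0.20) and Timp3 (-0.16, -0.67 to 0.34) did not pass. The 4 inhibitors of this family thus stood at 3.86, -0.18, -0.16 and -0.80. Has2, a hyaluronan synthase, changed by 1.12 (SE 0.19) and Itga5, the fibronectin receptor subunit, by 1.11 (SE 0.15). Tnc, tenascin C, changed by 0.80 (SE 0.14), but did not pass in the fit of the 6 wild type arrays alone (adjusted p = 0.0627). Acan, the lectican aggrecan, was at 0.36 (adjusted p = 0.243), while the lectican Bcan was the 1 matrix gene that fell.

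In the stress lists few members passed, beside 1.62% of all genes higher and 0.938% lower. Of 21 heat shock genes 2 rose, the small ones Hspb1 and Hspb6, while Hspa1a was at -0.06 (95% interval -0.42 to 0.30) and Hspa5, the chaperone of the endoplasmic reticulum, at 0.22 (-0.20 to 0.63). Of 20 genes of oxidative stress, iron and metallothioneins 3 rose, Lcn2 among them, and 1 fell. Hmox1, the haem-degrading oxygenase, was at 8.5, 8.48 and 8.55 after saline and 9.71, 9.44 and 9.46 after KA, a change of 1.01 (SE 0.12, adjusted p = 7.1e-05). Mt1, a metallothionein, changed by 0.48 (SE 0.10, adjusted p = 0.0135), but not past the threshold on centred arrays (adjusted p = 0.0731) or without saline replicate 3, where the highest adjusted p of the 6 fits, 0.0633, was reached. Gsta4, a glutathione transferase, fell by 0.70 (SE 0.13, adjusted p = 0.00437). Of 20 genes of the unfolded protein response 1 rose, Atf3, and of 15 genes of p53 and cell death 1 rose, Gadd45a, at 0.49 (SE 0.11). The call of Gadd45a was lost without saline replicate 2 or 3 or KA replicate 3 (adjusted p from 0.0195 to 0.09, changes of 0.42 to 0.60).

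Of 16 glucocorticoid response genes 0 rose and 1 fell, beside 1.62% and 0.938% of all genes. The 1 that fell was Tsc22d3, which encodes the glucocorticoid-induced leucine zipper. On centred arrays, where 4.04% of all genes were lower, 5 were lower, 4 without saline replicate 1 and 4 with the choroid plexus covariate. As deposited 4 were lower without saline replicate 1. Tsc22d3 was at 9.50, 9.75 and 9.72 after saline and 8.79, 8.37 and 8.68 after KA, a change of -1.05 (SE 0.12, adjusted p = 0.00011). Fkbp5, another target of the hormone receptor, was at -0.01 (95% interval -0.30 to 0.27), Sgk1 at 0.09 (-0.29 to 0.47) and Nr3c1, the receptor itself, at -0.51 (adjusted p = 0.065 as deposited, 0.00081 centred). Of 17 clock genes 2 fell, Hlf at -0.91 (SE 0.15, adjusted p = 0.00185) and Arntl at -0.51 (SE 0.12, adjusted p = 0.0251). Arntl lost its call without saline replicate 1 or 2 or KA replicate 2 (adjusted p from 0.0308 to 0.119, changes of -0.62 to -0.35). In the fit of the 6 wild type arrays alone neither clock gene passed (adjusted p = 0.0529 for Hlf and 0.225 for Arntl).

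Of 16 dentate granule cell markers 1 rose, Penk, and 3 fell, with a median of -0.27, beside 0.938% of all genes lower. On centred arrays 1 was higher and 8 lower, beside 3.14% and 4.04% of all genes, and 1 and 6 without saline replicate 1. As deposited, 6 were lower without saline replicate 1 and 2 without any other 1 array. Beside Tdo2, Lct, which encodes lactase, was at 10.20, 10.03 and 10.01 against 8.93, 9.14 and 9.18, a change of -1.01 (SE 0.18, adjusted p = 0.00317). Trpc6, a cation channel, was at 10.22, 10.48 and 10.22 against 9.62, 9.82 and 9.77, a change of -0.58 (SE 0.14, adjusted p = 0.031), and its call was lost without any 1 array but saline replicate 1 (adjusted p from 0.0418 to 0.187, changes of -0.67 to -0.52). Prox1, the transcription factor that defines these cells, was at 11.00, 11.21 and 11.20 after saline and 10.79, 10.84 and 10.93 after KA, a change of -0.29 (95% interval -0.52 to -0.06, adjusted p = 0.252). Calb1, the calcium buffer calbindin, was at -0.20 (-0.48 to 0.07).

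Beside 0.938% of all genes lower, 1 of 19 markers of CA1, CA2 and CA3 pyramidal cells fell, with a median of -0.10. It was Dcn, the matrix proteoglycan decorin, at 11.88, 11.89 and 12.14 against 11.22, 10.58 and 11.39, a change of -0.92 (SE 0.23, adjusted p = 0.0388). Dcn is also a meningeal fibroblast marker, of which 0 of 15 rose and 1, Dcn, fell, and its call was lost without any saline replicate or KA replicate 2 (adjusted p from 0.0295 to 0.24, changes of -1.07 to -0.64). Wfs1 was at -0.37 (95% interval -0.72 to -0.01). Of 16 interneuron markers 1 rose, Npy, with Gad1 at -0.15 (-0.38 to 0.09) and Pvalb at -0.51 (-0.93 to -0.09). Of 27 proliferation genes 2 rose, beside 1.62% of all genes. The 2 were the replication helicase subunits Mcm5 at 0.64 (SE 0.10) and Mcm2 at 0.54 (SE 0.14), with Mki67 at 0.08 (-0.44 to 0.61). Mcm2 lost its call without any 1 array but KA replicate 1 (adjusted p from 0.0307 to 0.164, changes of 0.52 to 0.56).

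Of 112 genes of ion channels, glutamate receptors and GABA signalling 0 rose and 5 fell, with a median of -0.18, beside 0.938% of all genes lower. On centred arrays, where 3.14% of all genes were higher and 4.04% lower, 3 were higher and 17 lower. The counts were 1 and 13 without saline replicate 1 and 3 and 7 with the choroid plexus covariate. As deposited, 2 to 5 were lower over the fits that leave out 1 array, with 2 without saline replicate 2 or KA replicate 1 and 3 without saline replicate 1 or 3, and 1 in the fit of the 6 wild type arrays alone. Slc6a11, the GABA transporter of astrocytes, was at 11.84, 12.28 and 12.17 after saline and 10.88, 11.35 and 11.47 after KA, a change of -0.88 (SE 0.15, adjusted p = 0.00284). Gabrd, the delta subunit of extrasynaptic GABA receptors, was at 9.24, 9.43 and 9.47 against 8.71, 8.80 and 8.81, a change of -0.62 (SE 0.11, adjusted p = 0.00505). Both had every KA array below every saline array. In the fit of the 6 wild type arrays alone neither passed (adjusted p = 0.0914 and 0.0982). The 1 gene called lower there was not among these 5. The others were Kcnk4, a leak potassium channel, at -0.55 (SE 0.12), Kcnb2, a delayed rectifier, at -0.51 (SE 0.13) and Grin2c, an NMDA receptor subunit, at -0.51 (SE 0.12). Each of these 3 lost its call without some arrays, which for Kcnk4 were saline replicates 2 and 3 and KA replicate 1, for Kcnb2 saline replicates 1 and 2 and KA replicates 1 and 2, and for Grin2c all but KA replicate 2. The highest adjusted p was 0.11 for Kcnk4, 0.265 for Kcnb2 and 0.138 for Grin2c, with changes of -0.62 to -0.51, -0.65 to -0.44 and -0.59 to -0.44. Gria2, an AMPA receptor subunit, was at -0.18 (95% interval -0.39 to 0.02) and Grik2, a kainate receptor subunit, at -0.10 (-0.37 to 0.17).

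Of 33 respiratory chain subunits 0 passed, with a median of -0.08 and changes from -0.32 to 0.15, and of 20 genes of cholesterol synthesis 0 passed, with a median of 0.06. Of 19 oligodendrocyte and myelin genes 1 rose, Gldn, and 2 fell, with a median of -0.23, beside 1.62% and 0.938% of all genes. Aspa, the enzyme that splits N-acetylaspartate, was at 9.61, 9.71 and 9.81 against 8.63, 9.13 and 9.05, a change of -0.78 (SE 0.14, adjusted p = 0.00439). The fit of the 6 wild type arrays alone did not call Aspa (adjusted p = 0.0785). Cnp, a myelin enzyme, was at 12.08, 12.42 and 12.54 against 11.64, 11.87 and 11.82, a change of -0.58 (SE 0.12, adjusted p = 0.0107), and lost its call without saline replicate 2 or 3 (adjusted p from 0.00204 to 0.0687, changes of -0.64 to -0.53). Mog was at -0.65 (adjusted p = 0.212) and Mbp at -0.23 (95% interval -0.51 to 0.04). Of 12 genes of oligodendrocyte precursors 0 rose and 1 fell, Cspg4, which encodes NG2, at -0.50 (SE 0.12, adjusted p = 0.0439). Its call was lost without saline replicate 2 or 3 or KA replicate 1 or 2 (adjusted p from 0.0174 to 0.195, changes of -0.53 to -0.44).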

How the data were processed

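Affymetrix Mouse Gene 1.0 ST arrays were each given 100 ng of total RNA, per the labels' protocols. The authors deposited log2 signals of 35557 probe sets. Affymetrix Expression Console appears in the submitters' processing notes; its version and method of normalization were not given in the sources used here. Besides these arrays the table held 0 other per-sample columns. Probe sets with exactly 1 symbol were kept (21789; 1621 had several, 12147 none), and the brightest stood for each of 19938 genes. By Entrez identifier 21698 matched RefSeq (GRCm38.p6), with 0 symbols changed.

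All 18 arrays of mice of 10 weeks (6 groups of 3) entered 1 limma fit (version 3.58.1, R 4.3.3; empirical Bayes, no block, 12 residual degrees of freedom), tested on simulated data. Named by rule were, per direction, the 15 largest called changes, without predicted loci, small RNAs, olfactory and vomeronasal receptors and immunoglobulin or T cell receptor segments, and up to 4 members of smallest p of each of 53 lists, 105 genes in all; other members appear with their values. The comparison, members and lists, which overlap, were chosen with earlier results of these data known, so no list is independent support. Promoter windows matched 56 of the 71 named genes that rose.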

Additional observations from a re-analysis of the deposited data

Results flagged for a closer look

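For 3 named genes the response to KA differed between wild type and fosB mutant mice, as tested by limma's interaction contrast over all genes with Benjamini-Hochberg adjustment. That contrast called 8 genes (0.0401%) for fosB-null and 3 (0.015%) for fosB d/d mice, all of which share the wild type arrays used above. The 3 named genes were chosen for their change on those arrays, which favours a larger wild type response. The response of Gal was larger in wild type than in fosB-null mice by 1.7 on the relative scale (SE 0.16, adjusted p = 1.6e-05) and larger than in fosB d/d mice by 1.07 (SE 0.16, adjusted p = 0.00358). Mean levels of Gal after saline and KA were 7.0 and 8.88 in wild type, 7.38 and 7.38 in fosB-null and 7.05 and 7.68 in fosB d/d mice. The response of Nptx2 was larger by 1.22 (SE 0.16, adjusted p = 0.00056) than in fosB-null and by 1.01 (SE 0.16, adjusted p = 0.0038) than in fosB d/d mice, with means of 9.91 and 11.14 in wild type, 10.00 and 9.84 in fosB-null and 10.01 and 10.07 in fosB d/d mice. The response of Cst7 was larger than in fosB-null mice by 0.96 (SE 0.19, adjusted p = 0.0433), with means of 7.30 and 8.36 in wild type and 7.53 and 7.46 in fosB-null mice. Against fosB d/d mice its difference did not pass (adjusted p = 0.125).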

How the results depend on the processing

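No change of the 105 named genes turned its direction under an alternative that kept the gene. The setting without the dimmest 30% of genes kept 91 of them. In all 6 fits that leave out 1 wild type array 80 of the 105 passed. All these settings reuse arrays that selected the genes, so kept calls and directions were favoured in advance and are no independent support. Main counts were 323 higher and 187 lower. They were 626 and 806 on median-centred arrays, 687 and 740 after quantile normalization, 142 and 31 in the fit of the 6 wild type arrays alone (65 of the 105 genes passed, beside 80 and 45 with the replicate block on these arrays as deposited and centred), 2008 and 1452 with array weights, 2136 and 2005 in centred replicates 2 and 3, and 672 and 660 on centred arrays without saline replicate 1. With the choroid plexus covariate 405 were lower. The last 2 settings were chosen after the data were seen. Leaving out 1 array gave 195 to 530 higher and 51 to 296 lower genes: saline replicate 2 gave 204 and 51, KA replicate 1 gave 530 and 92, KA replicate 3 gave 195 higher, and saline replicate 1, saline replicate 3 and KA replicate 2 gave 296, 76 and 85 lower. Once group means were removed, saline and KA arrays of one number correlated at 0.171, -0.319 and 0.0811, and those of different numbers at -0.311 to 0.356. A correlation cannot see a shift of a whole array, such as the lower level of both replicate 1 arrays. It therefore could not decide whether the numbers pair the arrays, and the main fit had no block. A block on the replicate number gave counts of 666 and 473 over 18 arrays, 221 and 101 over the 6 arrays, and 87 and 25 over the 6 centred arrays. Genes whose response differed from fosB-null mice numbered 8, or 35 centred, 37 after quantile normalization, 471 with the block and 4 to 1521 with 1 array left out, 1521 being without KA replicate 1, 5 without saline replicate 1, and 4 without saline replicate 2, KA replicate 2 or KA replicate 3. For fosB d/d mice they numbered 3, 66 with the block and 3 to 6 with 1 array left out, 6 without KA replicate 1. The cause of these shifts was not tested. No detection calls were used, so how far a dim gene such as Il6 stands above background is not known here.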
